A study of Mus musculus with 8 samples.

Results

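Dendritic cell genes were examined in RNA-seq data from mural cells, the cells that wrap blood vessels, sorted from mouse hindlimb. The 9 genes were chosen by symbol as usual dendritic cell markers and were all listed once among the 37979 genes of the expression table. They were Xcr1, Clec9a, Flt3, Zbtb46, Batf3, Cd209a and Irf8, which are described here as conventional dendritic cell genes, and Siglech and Bst2, which are described as plasmacytoid dendritic cell genes. Dendritic cells were not a sorted population in this study, so the values describe how far these transcripts were present in the libraries labelled pericytes and smooth muscle cells (SMCs).

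Both groups came from Ai14+/-;SM22α-Cre+ mice of both sexes and 3 to 4 months of age. Their Cre recombinase is under control of the SM22α promoter and turns on the red reporter tdTomato for good, so that cells with past as well as present promoter activity carry it. Pericytes were gated as live cells negative for CD31 and CD45, positive for PDGFRβ and negative for tdTomato. SMCs were gated in the same way but were positive for tdTomato. No treatment was applied, and each group had 4 libraries, each pooled from several sorts. The labels do not say which animals went into which library.

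Dendritic cells are antigen-presenting leukocytes that carry CD45 on their surface. Conventional dendritic cells of type 1 take up dead cells and present their antigens to CD8 T cells. Conventional cells of type 2 present mainly to CD4 T cells, and plasmacytoid cells release large amounts of type I interferon after sensing viral nucleic acid. All of them depend on the growth factor receptor FLT3 and its ligand.

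Values are FPKM, a fragment count scaled by transcript length and by library size, which can be compared between genes. Log2FC is the difference of means of log2(FPKM + 1), pericytes minus SMCs, and is smaller than the change in FPKM for low genes. The q value is limma's p-value after Benjamini-Hochberg adjustment over the 27414 genes with a value above 0 in any library. A gene was called at q below 0.05.

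Between 12713 and 13194 genes reached 1 FPKM in each library. FPKM values summed to 1190435 in pericyte replicate 2, which stood apart, and to between 656405 and 782014 in the other libraries. The number of reads behind a value is unknown. The targets of the sort were also measured. Ptprc, which encodes CD45, had 202.4, 80.6, 230.3 and 188.7 FPKM in pericytes 1 to 4 against 4.34, 9.15, 7.26 and 11.9 FPKM in SMCs 1 to 4 (Log2FC 4.24, limma q = 4.0e-04). Pecam1, which encodes CD31, was higher in SMCs, with 25.0 to 59.7 FPKM in pericytes and 101.8 to 301.1 FPKM in SMCs (limma q = 0.00873). Pdgfrb, the gene of the positive gate, had 3.21 to 17.6 FPKM in pericytes and 15.6 to 91.5 FPKM in SMCs (limma q = 0.0973). Tagln, which encodes SM22α, had 165.2 to 551.5 FPKM in pericytes and 499.7 to 1569 FPKM in SMCs (limma q = 0.110). Of 14 pericyte and smooth muscle markers, 0 were higher in pericytes by limma and 1, Rgs5, was higher in SMCs. The summed level of the 14 was 619 to 1919 FPKM in pericytes and 1830 to 5840 FPKM in SMCs. Libraries labelled pericytes therefore held CD45 transcripts at levels far above those of the SMC libraries, although the gate was described as CD45 negative. That gate used an antibody to the protein, whereas the values here are RNA, which is a different measure. The dendritic cell values below are given with the Ptprc measurement beside them.

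Siglech, Flt3 and Cd209a were higher in pericytes, and these 3 of 9 were the members called in that direction, against 10.6% of all genes tested. By limma 0 of 9 were called higher in SMCs, where 11.2% of all genes tested were, and 0 were higher in SMCs at an unadjusted p below 0.05 either. All 3 also had a Log2FC above 2 (Cd209a 1.95 under quantile and 1.80 under TPM scaling), and 3.24% of all 27414 genes tested both passed the test in that direction and had such a Log2FC. In 4 of 9 genes, which were these 3 and Xcr1, every pericyte library was above every SMC library, as in 12.1% of all genes tested. The median Log2FC of the 9 was 0.77, and that of all genes tested was 0.02. Because the libraries are bulk RNA, fewer cells of a type and less RNA per cell cannot be told apart.

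The stretches of DNA just upstream of 3 of these genes are shown because the genes mark the range of the results: Siglech had the largest difference, Flt3 the smallest q value, and Bst2, an interferon-induced gene, a Log2FC close to 0. Each is the 250 bases before the annotated start, read 5′ to 3′ on the strand of the gene, from RefSeq on GRCm38.p6. Siglech is at chr7:55767934-55768183 on the plus strand, Flt3 at chr5:147400490-147400739 on the minus strand and Bst2 at chr8:71537473-71537722 on the minus strand. Capitals mark matches on either strand to GAAANNGAA, the letters of an interferon-stimulated response element.
Siglech: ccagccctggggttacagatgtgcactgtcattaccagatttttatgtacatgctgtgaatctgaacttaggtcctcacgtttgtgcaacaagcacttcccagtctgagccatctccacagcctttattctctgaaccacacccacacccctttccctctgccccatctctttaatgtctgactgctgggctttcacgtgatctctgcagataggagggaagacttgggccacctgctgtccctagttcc
Flt3: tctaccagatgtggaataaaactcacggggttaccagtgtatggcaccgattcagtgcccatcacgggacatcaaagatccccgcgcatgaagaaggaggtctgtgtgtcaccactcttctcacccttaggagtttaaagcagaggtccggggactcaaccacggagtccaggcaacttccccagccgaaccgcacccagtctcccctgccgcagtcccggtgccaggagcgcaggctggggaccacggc
Bst2: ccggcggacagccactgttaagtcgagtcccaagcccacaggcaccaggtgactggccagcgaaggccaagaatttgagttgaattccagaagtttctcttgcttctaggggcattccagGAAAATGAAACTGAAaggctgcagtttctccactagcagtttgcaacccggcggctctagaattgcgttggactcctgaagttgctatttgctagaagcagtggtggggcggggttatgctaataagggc
The search found 2 overlapping matches in Bst2, shown as 1 capital run that begins 130 bases before the start, and none in the windows of the other 8 genes. Among all 32851 promoters of the same length 7.13% held a match. Of 3 further motifs searched on both strands, GAGGAA was found in Batf3 alone among the 9 genes and in 23.3% of all promoters. TGANTCA was found in Zbtb46 alone and in 6.75% of all promoters. CANNTG was found in 9 of the 10 member promoters (Irf8 has 2) and in 66.2% of all. GAAANNGAA and GAGGAA share the letters GAA, so matches to them can overlap.

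Among the plasmacytoid genes, Siglech encodes Siglec-H, a surface lectin that in mice marks plasmacytoid dendritic cells and some macrophages. It lies at chr7:63023548-63034295 on the plus strand in NCBI Build 37, the build of the expression table, to which all further positions refer. Its level was 80.2, 91.8, 103.0 and 142.3 FPKM in pericytes 1 to 4 and 4.24, 4.08, 6.91 and 18.4 FPKM in SMCs 1 to 4. The lowest pericyte library was above the highest SMC library, and SMC replicate 4 stood above the other 3 SMC libraries. The mean was 104.3 ± 27.0 FPKM in pericytes and 8.42 ± 6.80 FPKM in SMCs (SD, n = 4 each). The Log2FC was 3.69 with an SE of 0.44 (limma q = 0.00117) and 4.11 without SMC replicate 4, and the exact permutation test gave a two-sided p of 0.0286, the smallest that 4 against 4 libraries allow.

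Bst2 encodes tetherin (PDCA-1), which holds budding virus at the cell surface. It serves as a plasmacytoid marker in unstimulated mice but is induced by interferon in many cell types. The gene is at chr8:74058163-74061336 on the minus strand. Its level was 70.8, 140.2, 93.8 and 147.5 FPKM in pericytes and 95.8, 92.8, 104.2 and 144.3 FPKM in SMCs. The groups overlapped throughout, and their means of 113.1 ± 36.9 and 109.3 ± 23.8 FPKM differed by less than the spread between libraries. The Log2FC was 0.01, with a 95% confidence interval from -0.61 to 0.63 (limma q = 0.989). Its sign turned to -0.050 under quantile scaling and -0.23 under TPM scaling.

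Siglech and Bst2 therefore had pericyte levels that overlapped and SMC levels that did not. Bst2 was the highest of the 9 genes in both groups, whereas Siglech ranked 2 in pericytes and 4 in SMCs.

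**Figure D1:**
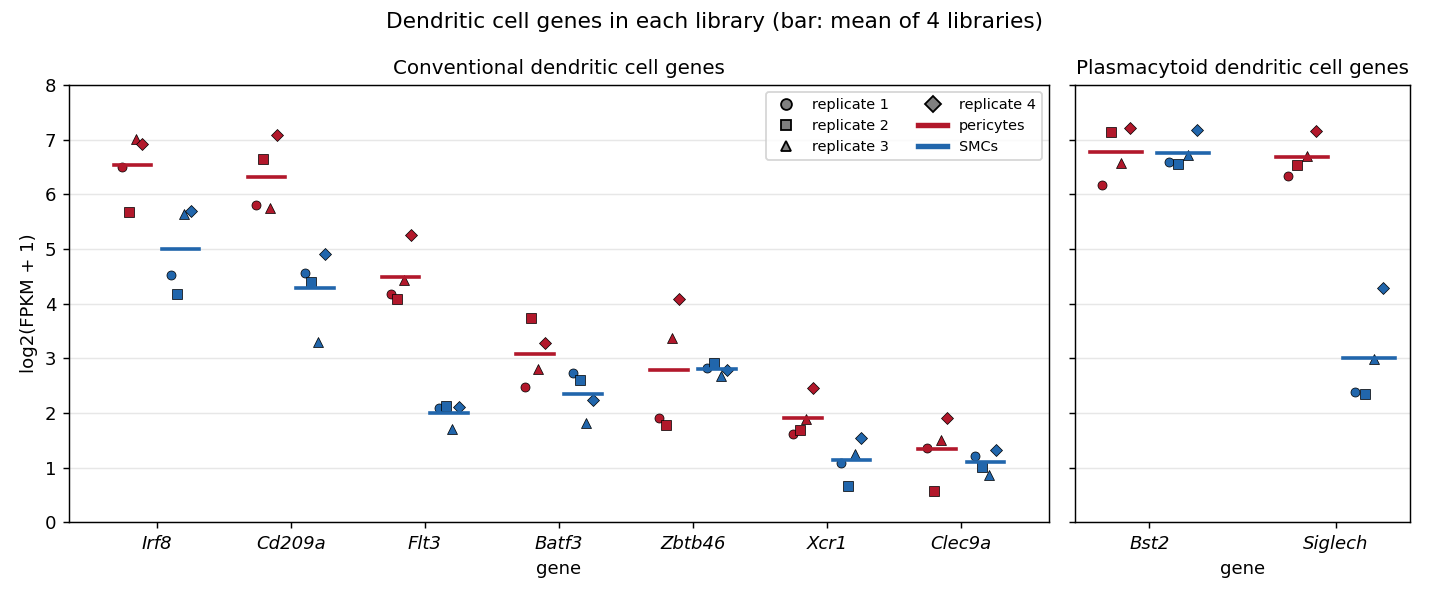
Level of each gene in each library, as log2(FPKM + 1), with conventional genes on the left and plasmacytoid genes on the right. Each point is 1 library, its shape gives the replicate number, red is pericytes, blue is SMCs, and bars are means of 4 libraries. Red and blue points are apart for Siglech, Flt3, Cd209a and Xcr1 and are mixed for Bst2 and Clec9a.

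Among the conventional genes, Flt3 encodes the tyrosine kinase receptor that drives dendritic cell development from bone marrow progenitors, which carry it too. It is at chr5:148142317-148212065 on the minus strand. Pericyte libraries 1 to 4 had 17.0, 15.9, 20.5 and 37.2 FPKM, and SMC libraries 1 to 4 had 3.26, 3.35, 2.25 and 3.30 FPKM. The lowest pericyte library was several times above the highest SMC library. The means were 22.6 ± 9.88 and 3.04 ± 0.529 FPKM (SD, n = 4 each), a ratio of 7.44. The Log2FC was 2.48 with an SE of 0.26 (limma q = 7.0e-04, exact permutation p = 0.0286, two-sided).

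Cd209a encodes a C-type lectin that binds mannose-rich sugars and is found on type 2 and monocyte-derived dendritic cells. It is at chr8:3743395-3748984 on the minus strand. Its level was 54.9, 98.5, 52.5 and 135.0 FPKM in pericytes and 22.7, 20.1, 8.82 and 29.2 FPKM in SMCs. The groups did not overlap, although the highest pericyte library had over 2 times the lowest. The means were 85.3 ± 39.3 and 20.2 ± 8.49 FPKM (ratio 4.22), and the Log2FC was 2.02 with an SE of 0.44 (limma q = 0.0154, exact permutation p = 0.0286). The Log2FC ran from 1.69 to 2.23 when each library was left out in turn, and it was below 2 without pericyte replicate 2 (1.92), pericyte replicate 4 (1.77) or SMC replicate 3 (1.69).

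Irf8 encodes the transcription factor required for type 1 conventional dendritic cells, and B cells and monocytes use it as well. It is at chr8:123260258-123280594 on the plus strand. Its level was 89.7, 49.9, 128.7 and 119.8 FPKM in pericytes and 22.0, 17.0, 48.8 and 50.6 FPKM in SMCs. The ranges met at 1 point, since pericyte replicate 2 lay below SMC replicate 4. The means were 97.0 ± 35.6 and 34.6 ± 17.5 FPKM (ratio 2.81). With a Log2FC of 1.52 and an SE of 0.45, Irf8 narrowly missed the threshold (limma q = 0.0515, exact permutation p = 0.0571). Without pericyte replicate 2 the Log2FC was 1.81 and limma q was 0.0257, and without SMC replicate 4 they were 1.75 and 0.0485. Over 18 alternative settings its q value ran from 0.00238 to 0.160, below 0.05 in 8 of them.

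Xcr1 encodes the receptor for the chemokine XCL1 and, with Clec9a, is the most restricted marker of type 1 conventional dendritic cells. It is at chr9:123761436-123771246 on the minus strand. Its level was 2.05, 2.23, 2.69 and 4.46 FPKM in pericytes and 1.12, 0.592, 1.38 and 1.93 FPKM in SMCs. Every pericyte library was above every SMC library, but the gap between pericyte replicate 1 and SMC replicate 4 was small. The Log2FC was 0.77 with an SE of 0.24 (limma q = 0.0644, exact permutation p = 0.0286). With only genes of at least 1 FPKM in at least 4 libraries tested, limma q was 0.0400. Over the 18 settings limma q ran from 0.0129 to 0.171. It was below 0.05 in 3 of them, and in 0 of the 8 that left out 1 library.

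Clec9a encodes a receptor for actin filaments exposed by dead cells, and is at chr6:129358880-129374780 on the plus strand. Its level was 1.55, 0.485, 1.85 and 2.73 FPKM in pericytes and 1.32, 1.02, 0.826 and 1.49 FPKM in SMCs. Both the lowest and the highest of the 8 values were in pericytes, so the SMC range lay inside that of the pericytes. The Log2FC was 0.23, with a 95% confidence interval from -0.41 to 0.87 (limma q = 0.643).

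Batf3 encodes a partner of IRF8 in the type 1 lineage and is at chr1:192922293-192932822 on the plus strand. Its level was 4.59, 12.4, 5.99 and 8.71 FPKM in pericytes and 5.61, 5.09, 2.52 and 3.70 FPKM in SMCs. Pericyte replicate 1 fell among the SMC libraries and the other 3 pericyte libraries lay above all of them. The Log2FC was 0.73, with a 95% confidence interval from -0.01 to 1.47 (limma q = 0.163).

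Zbtb46 encodes a transcription factor that separates conventional dendritic cells from monocytes and macrophages, and is also expressed in endothelium. It is at chr2:181122467-181194131 on the minus strand. Its level was 2.73, 2.44, 9.34 and 15.9 FPKM in pericytes and 6.10, 6.49, 5.43 and 5.86 FPKM in SMCs. Pericyte replicates 1 and 2 were below all SMC libraries, and pericyte replicates 3 and 4 were above all of them. The highest pericyte library had 6.51 times the lowest, whereas the SMC libraries differed by 1.20 times. The Log2FC was -0.02, with a 95% confidence interval from -1.23 to 1.20 (limma q = 0.991). Its sign depended on single libraries, as the Log2FC was 0.28 without pericyte replicate 1, 0.32 without pericyte replicate 2 and -0.45 without pericyte replicate 4.

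**Figure D2:**
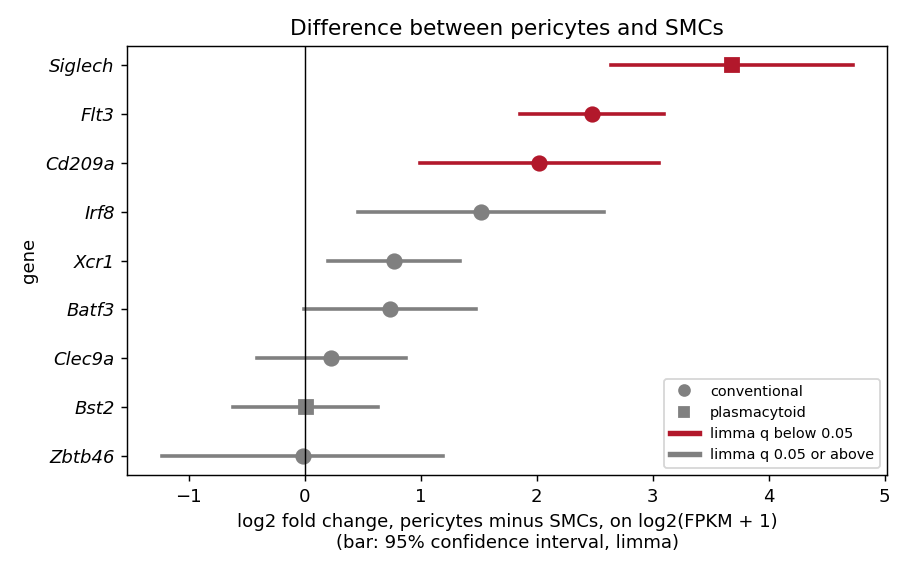
Log2 fold change of each gene, pericytes minus SMCs, on log2(FPKM + 1), with 95% confidence intervals from limma. Circles are conventional and squares plasmacytoid genes, and red marks q below 0.05. Siglech, Flt3 and Cd209a are called, the interval of Irf8 and of Xcr1 lies above 0 without a call, and those of the other 4 include 0.

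Within pericytes the order of mean levels was Bst2, Siglech, Irf8, Cd209a, Flt3, Batf3, Zbtb46, Xcr1 and Clec9a. Neighbours in the first 4 overlapped, Flt3 overlapped neither Cd209a above it nor Batf3 below it, and the last 4 overlapped with their neighbours. Within SMCs the order was Bst2, Irf8, Cd209a, Siglech, Zbtb46, Batf3, Flt3, Xcr1 and Clec9a. There Bst2 did not overlap Irf8, Flt3 did not overlap Xcr1, and all other neighbours overlapped. The 7 conventional genes summed to between 172.5 and 323.8 FPKM in pericytes and between 53.7 and 96.0 FPKM in SMCs. The 2 plasmacytoid genes summed to between 151.0 and 289.9 FPKM in pericytes and between 96.9 and 162.7 FPKM in SMCs.

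Further lists of related genes are given by their counts, which can be read against the 10.6% and 11.2% of all genes called in each direction. Differences between these lists, or between them and the members, were not tested. Of 23 other plasmacytoid genes tested, 17 had higher levels in pericytes and 1 had in SMCs, with a median Log2FC of 2.97. Their summed level was 2262 to 4644 FPKM in pericytes and 323 to 465 FPKM in SMCs. Ccr9, a gut-homing chemokine receptor, had 28.7 ± 4.26 FPKM in pericytes and 1.08 ± 0.0716 FPKM in SMCs (Log2FC 3.83, limma q = 4.9e-06). Pacsin1, which acts in membrane trafficking, had 17.3 ± 3.52 and 0.759 ± 0.189 FPKM (Log2FC 3.36, limma q = 2.2e-05). Tcf4, the transcription factor E2-2 that specifies plasmacytoid cells and is also used in many other tissues, went the other way with 51.1 ± 12.8 and 135.8 ± 9.80 FPKM (Log2FC -1.42, limma q = 0.00124). Irf7, the main activator of interferon genes in these cells, was named after its values were seen and did not pass the test (Log2FC 0.34, limma q = 0.621). Several genes of this list, among them Spib, Bcl11a and Ly6d, are also expressed by B cells.

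For other type 1 conventional genes, 4 of 16 had higher levels in pericytes and 3 of 16 in SMCs (median Log2FC 0.04). The pericyte count fell to 2 without pericyte replicate 3 or without SMC replicate 1, 2 or 3. Under TPM scaling the pericyte count was 3 and the SMC count 5. Cd8a had 58.9 ± 6.51 FPKM in pericytes and 1.41 ± 0.286 FPKM in SMCs (limma q = 2.0e-06), and Itgae (CD103) had 13.0 ± 5.37 and 0.557 ± 0.375 FPKM (limma q = 3.6e-04). T cells express both of these genes. Tlr3, a sensor of double-stranded RNA, was higher in SMCs (0.956 ± 0.319 against 5.04 ± 0.866 FPKM, limma q = 4.1e-04), as was the chemokine Cxcl9 (1.28 ± 0.490 against 11.3 ± 3.35 FPKM, limma q = 6.3e-04).

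For other type 2 conventional genes the numbers were 6 of 16 higher in pericytes and 2 of 16 in SMCs (median Log2FC 0.60). The SMC count fell to 1 without pericyte replicate 1, 3 or 4 and without any 1 SMC library. Irf4, a transcription factor of type 2 cells and of lymphocytes, had 17.4 ± 3.58 FPKM in pericytes and 1.21 ± 0.355 FPKM in SMCs (limma q = 5.5e-05). Ltb, the cytokine lymphotoxin beta, had 206 ± 55.1 and 5.99 ± 0.910 FPKM (limma q = 1.8e-05). Klf4, a transcription factor with a role in smooth muscle too, was higher in SMCs (Log2FC -0.99, limma q = 0.0382), as was the costimulatory ligand Tnfsf9 (Log2FC -2.10, limma q = 0.00112). Of 18 genes of mature or migratory dendritic cells, 5 had higher levels in pericytes and 1 did in SMCs (median Log2FC 0.44). The pericyte count fell to 3 without pericyte replicate 3 or 4 or SMC replicate 3. Without pericyte replicate 4 the SMC count was 2. Ccr7, the receptor that guides cells to lymph nodes and is also on T and B cells, had a Log2FC of 4.27 (limma q = 5.5e-05), and Cd83 one of 1.73 (limma q = 0.00101). Socs2, an inhibitor of cytokine signalling, was higher in SMCs (Log2FC -1.93, limma q = 2.3e-04). Fscn1, an actin-bundling protein of mature cells, had a Log2FC of -0.89 and did not pass (limma q = 0.101).

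The ligands of Xcr1 and Flt3 were both higher in pericytes. Xcl1, which encodes the ligand of Xcr1 and is made by NK and CD8 T cells, had 139.9 ± 76.2 FPKM in pericytes and 2.42 ± 1.63 FPKM in SMCs (Log2FC 5.34, limma q = 2.9e-04). Flt3l had 20.1 ± 2.99 and 11.0 ± 1.41 FPKM (Log2FC 0.81, limma q = 0.00489). Of 14 ligands and receptors of dendritic cell growth other than the members, 3 were higher in pericytes and 3 in SMCs (median Log2FC 0.77). With replicates 1 and 2 against 3 and 4 as a covariate the pericyte count was 8 and the SMC count 3. Csf1 and Il34, ligands of the macrophage growth factor receptor, were higher in SMCs with Log2FC of -2.63 (limma q = 0.00277) and -1.91 (limma q = 0.00292).

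In the families of the members, pericytes had higher levels of 4 of 12 IRF and BATF genes, Irf8 and Batf3 included, and SMCs of 2 (median Log2FC 0.54). Batf had 65.3 ± 25.4 FPKM in pericytes and 10.8 ± 1.67 FPKM in SMCs (Log2FC 2.43, limma q = 5.6e-04). Irf1, which is induced by interferon gamma, had 294 ± 41.5 and 737 ± 53.8 FPKM (Log2FC -1.33, limma q = 3.0e-04). Batf2 was higher in SMCs too (Log2FC -1.32, limma q = 0.00987). Of 8 C-type lectin genes of the natural killer gene complex, Clec9a included, 1 was higher in each direction (median Log2FC -0.12). These were Clec12a, an inhibitory receptor of myeloid cells (Log2FC 1.85, limma q = 0.00109), and Clec1a, which endothelium expresses (Log2FC -2.76, limma q = 7.6e-04). Clec7a, the receptor dectin-1 for fungal glucans, had a Log2FC of 1.44 (limma q = 0.220), and Olr1, a receptor for oxidised lipoprotein, one of -0.98 (limma q = 0.0773).

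The CD209 family lies in 1 cluster on chromosome 8. Besides Cd209a, 0 of the other 6 genes passed the test in the direction of pericytes by limma, and Cd209f and Cd209g were higher in SMCs. Cd209d had 23.3, 41.1, 25.1 and 51.2 FPKM in pericytes and 6.65, 5.24, 9.40 and 29.4 FPKM in SMCs (Log2FC 1.63, limma q = 0.0682, unadjusted p = 0.0165). Cd209c had 6.59, 6.997, 2.99 and 3.10 FPKM in pericytes and 3.25, 2.01, 1.31 and 0.674 FPKM in SMCs (Log2FC 1.08, limma q = 0.0780, unadjusted p = 0.0197). These were the 2 of the 6 with an unadjusted p below 0.05 in the direction of Cd209a, and Cd209e had a Log2FC of 0.02 (limma q = 0.989). Cd209f was at or below 0.325 FPKM in all pericyte libraries and between 3.65 and 26.6 FPKM in SMCs (Log2FC -3.11, limma q = 0.00468). Cd209g had the same direction (Log2FC -1.96, limma q = 0.0127). Cd209b, which tissue macrophages of the spleen express, had 0.544, 0.750, 2.71 and 6.83 FPKM in pericytes and 1.78, 2.28, 31.3 and 244.3 FPKM in SMCs. Its SMC libraries ranged over more than 2 orders of magnitude, with replicates 3 and 4 highest, and it did not pass the test (limma q = 0.330). No stretch of 100 bases in the protein-coding transcripts of Cd209a, or of any of the other 8 members, occurred in another gene's. Of 15 CD209 and Siglec genes tested, Cd209a and Siglech included, 4 had higher levels in pericytes and 2 in SMCs (median Log2FC 0.27), and Siglecg, an inhibitory receptor of B cells, had the smallest q value (Log2FC 3.96, limma q = 1.3e-04).

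**Figure D3:**
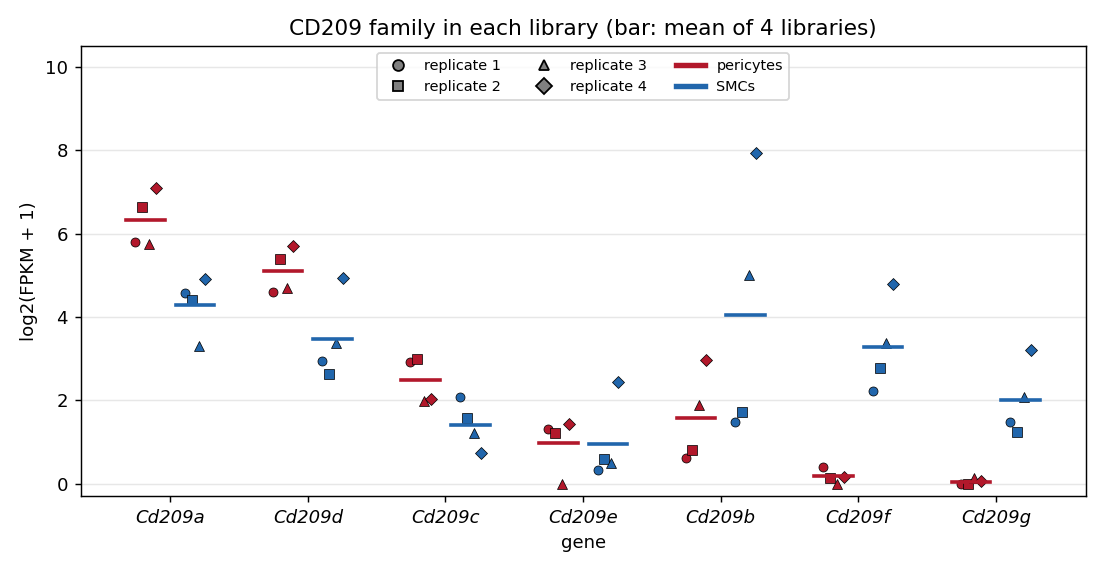
Level of each CD209 family gene in each library, as log2(FPKM + 1). Each point is 1 library with its shape giving the replicate number, red is pericytes, blue is SMCs, and bars are means of 4 libraries. Cd209a, Cd209d and Cd209c are higher on average in pericytes (the last pair not past the test), and Cd209f and Cd209g are near 0 in pericytes and higher in every SMC library.

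MHC class II genes are expressed at high levels by dendritic cells and also by B cells. By limma 8 of 11 were higher in pericytes, among them H2-Ob (185.6 ± 33.1 FPKM in pericytes) and the class II transactivator Ciita (15.9 ± 2.88 FPKM in pericytes and 0.585 ± 0.309 FPKM in SMCs, Log2FC 3.42, limma q = 4.2e-05). The other 3, H2-Aa, H2-Ab1 and Cd74, were listed at 0 in all 4 pericyte libraries. In a table without read counts such a 0 can be a missing estimate, so no fold and no direction is given for them. Their SMC levels were 414 to 732 FPKM for H2-Aa, 713 to 1137 FPKM for H2-Ab1 and 750 to 1478 FPKM for Cd74.

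Markers of other leukocytes that share genes with dendritic cells were measured in the same libraries. All 9 B cell markers were higher in pericytes (median Log2FC 5.13), with a summed level of 952 to 2241 FPKM in pericytes and 11.3 to 35.6 FPKM in SMCs. The smallest q values were those of Fcer2a (CD23, Log2FC 5.50) and the kinase Blk (Log2FC 4.32). Of 10 T cell markers, 9 were higher in pericytes (median Log2FC 5.35; summed level 1626 to 2497 against 27.7 to 60.3 FPKM), with the smallest q values in Cd5 (Log2FC 5.03) and the kinase Lck (Log2FC 5.67). All 8 natural killer cell markers were higher in pericytes (median Log2FC 3.98; summed level 297 to 511 against 6.06 to 11.4 FPKM), with the smallest q values in the receptor Ncr1 (Log2FC 3.40) and perforin, Prf1 (Log2FC 4.47). Macrophage and monocyte markers differed from these, since 11 of 18 were higher in SMCs and 1 in pericytes (median Log2FC -1.18; summed level 1069 to 1995 against 1592 to 2365 FPKM). The chemokine receptor Ccr2 was the one higher in pericytes (Log2FC 2.28, limma q = 0.00344), while Folr2 of resident macrophages (Log2FC -3.46, limma q = 5.2e-04) and the complement gene C1qb (Log2FC -3.03, limma q = 0.00326) were higher in SMCs. The member pattern thus stood beside higher lymphocyte markers and lower macrophage markers in pericytes, and the part of these cells in the values of Irf8, Flt3 and Cd209a was not tested.

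Beside Zbtb46, endothelial markers were higher in SMCs for 9 of 12 genes and in pericytes for 0 by limma (median Log2FC -2.57). Their summed level was 127 to 228 FPKM in pericytes and 582 to 1651 FPKM in SMCs, and Egfl7 (Log2FC -2.61) and Emcn (Log2FC -3.22) had the smallest q values. Beside Bst2, 10 of 18 interferon-stimulated genes were higher in SMCs and 1 was higher in pericytes (median Log2FC -1.13; summed level 302 to 389 FPKM in pericytes and 437 to 659 FPKM in SMCs). Ifit3, a typical gene of this list, had 7.51 ± 1.32 FPKM in pericytes and 30.2 ± 4.81 FPKM in SMCs (limma q = 2.1e-04). What these markers contribute to the levels of Zbtb46 and Bst2 was not tested.

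**Figure D4:**
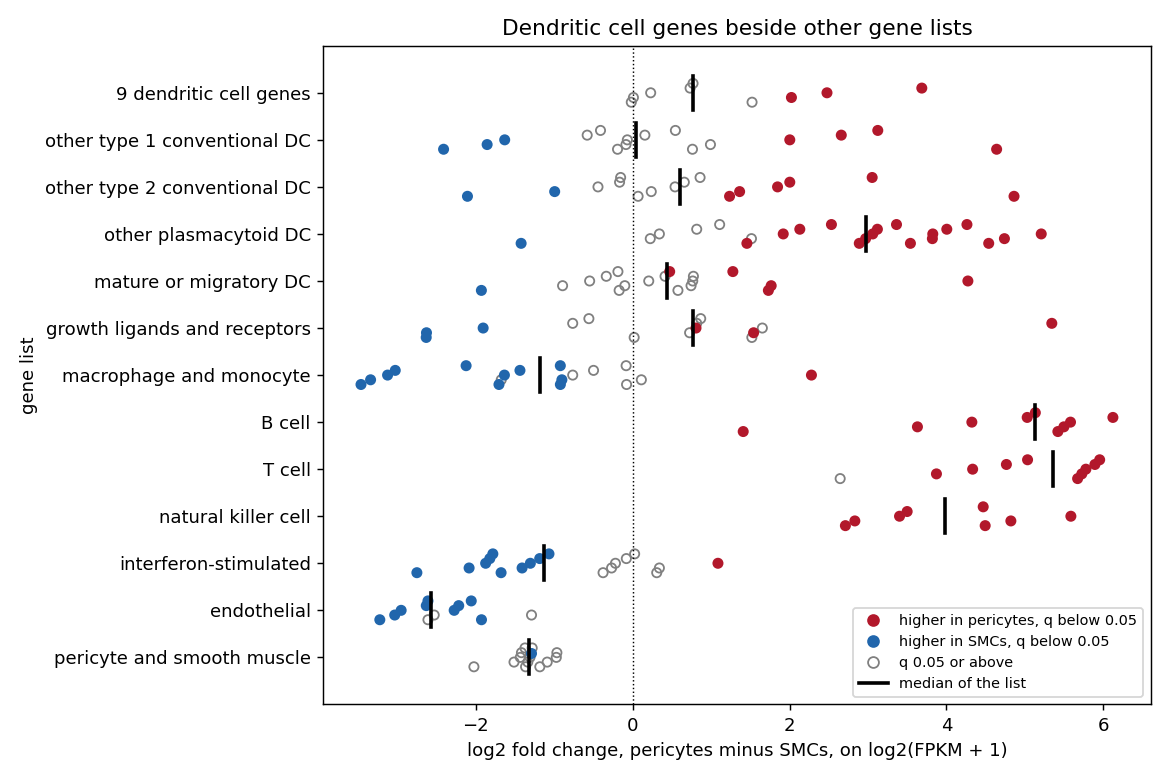
Log2 fold change, pericytes minus SMCs, of each gene in 13 lists, on log2(FPKM + 1). Each point is a gene, red is higher in pericytes and blue higher in SMCs at q below 0.05, open points did not pass, and black bars are list medians. The 9 dendritic cell genes have a median of 0.77, other plasmacytoid genes 2.97, B cell markers 5.13 and endothelial markers -2.57.

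The genes whose log2 levels followed a member most closely over the 8 libraries were found by Pearson's r among 13611 genes. As all 8 libraries share the contrast between the groups, r is a description only. For Siglech these were Ikbkb, a kinase of NF-κB signalling (r = 0.995), and Klrc1, an NK cell receptor (r = 0.994). For Flt3 they were Ighv6-3, an immunoglobulin variable segment, and AA987161 (r = 0.991 each). For Cd209a they were Atp2a1 (r = 0.977) and Clec10a, a C-type lectin of type 2 dendritic cells and macrophages (r = 0.973). Clec10a was itself higher in pericytes (Log2FC 1.24, limma q = 0.0350). For Bst2 the closest was Cd68, a macrophage lysosomal protein (r = 0.984), with 46.9 to 104.0 FPKM in pericytes and 57.2 to 89.2 FPKM in SMCs. For Irf8 it was 1700017B05Rik (r = 0.994), for Batf3 the chaperone partner Fkbp4 (r = 0.983), for Xcr1 Eif4ebp2, an inhibitor of translation (r = 0.981), for Clec9a 1110037F02Rik (r = 0.953) and for Zbtb46 Wdtc1 (r = 0.951). Between members, r was highest for Siglech and Flt3 (0.943) and lowest for Batf3 and Clec9a (0.0043).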

How the data were processed

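Per the labels and the study's methods, RNA of sorted cells was amplified with the SMART-Seq v4 kit, made into libraries with Nextera XT, and aligned to NCBI Build 37 with Bowtie2 and TopHat. The authors deposited 1 table of FPKM values per gene and library, which is the unit used here. The program that gave FPKM and the use of strand are not given in the sources used here.

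From these values log2(FPKM + 1) was computed for 8 libraries, and pericytes were compared with SMCs in limma 3.58.1 (R 4.3.3) with Benjamini-Hochberg adjustment over 27414 genes. Genes at 0 in all libraries (10565) were left out. Exact permutation tests went through every split of the 8 libraries into groups of 4, with numpy 2.4.6. The members and gene lists were chosen with earlier results of these data known. Of 235 list entries 232 were matched by symbol, and where a symbol had 2 rows the one with the higher mean was used. All members were named, and of each further list the 2 genes with the lowest q value in each direction, plus the 2 genes with the highest Pearson correlation to each member (genes averaging 1 FPKM or more); the text gives most of these, and the others are not reported here. Genes named outside this rule are described as such or serve as counts, gates or family members. Spib, Bcl11a and Ly6d were also named outside it, as examples of genes that B cells express. The motifs were chosen after the promoter sequences were available. Alternatives were another pseudocount (0.1), other filters, quantile, TPM and median-ratio scaling, an intensity trend, covariates and leaving out libraries. The fit was tested on simulated data.

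Since FPKM gives no read numbers, counting error could not be given. The limma p-values set the difference between groups against the spread between these libraries. Each library was pooled from several sorts, so the spread between single animals was not measured.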

Additional observations from a re-analysis of the deposited data

Results flagged for a closer look

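The level of Flt3 in SMCs had 1 library far from the others. SMC replicate 3 had 2.25 FPKM, and the other 3 had 3.26, 3.35 and 3.30 FPKM. On the log2(FPKM + 1) scale its gap to the nearest library was 0.922 of the range of the group, above Dixon's 95% critical value for 4 samples. Of 18 groups tested (9 genes in each cell type) 1 met this limit, and chance gives about 5%.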

How the results depend on the processing

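Over 18 alternative settings Siglech, Flt3 and Cd209a were called higher in pericytes in all 18, with limma q from 8.0e-05 to 0.00522, from 8.9e-05 to 0.00598 and from 0.00293 to 0.0381. The number of members higher in pericytes rose from 3 to 5, with Irf8 and Xcr1 added, when only genes of at least 1 FPKM in at least 4 libraries were tested (5), and with replicates 1 and 2 against 3 and 4 as a covariate (5). The labels do not say that a replicate number marks shared animals or sorts. Same-numbered libraries had correlations of 0.0794, 0.319, 0.437 and 0.474, and 2 of 4 correlated best with their own number. With the replicate block 5 members were higher in pericytes, with Irf8 at limma q = 0.00584 and Xcr1 at 0.0146 (ranges over all settings 0.00238 to 0.160 and 0.0129 to 0.171). Of the growth ligands and receptors, 7 rather than 3 were higher in pericytes with the block and 8 with the covariate. Counts in other lists also moved. Type 1 genes higher in pericytes fell from 4 to 2 without pericyte replicate 3, without SMC replicates 1, 2 or 3, and with all listed genes tested, and those higher in SMCs rose from 3 to 5 under TPM scaling. Type 2 genes higher in SMCs fell from 2 to 1 with a pseudocount of 0.1, with all listed genes tested, and without any 1 library other than pericyte replicate 2. Mature genes higher in pericytes fell from 5 to 3 without pericyte replicates 3 or 4 or SMC replicate 3, under TPM scaling and with all listed genes tested. Those higher in SMCs rose from 1 to 2 with the filter, the block, the covariate and without pericyte replicate 4. In alternatives chosen after seeing the data, with replicates 1 and 2 only, 1 member, Zbtb46, was higher in SMCs (Log2FC -1.03), which restates the split in its pericyte values that was seen before this setting was chosen. There limma called 1401 genes for pericytes and 1346 for SMCs over the whole table, against 2917 and 3060 with all libraries. With 2 libraries in each group Cd209a was no longer called (Log2FC 1.74, limma q = 0.0714, and 2.31 and 0.138 with replicates 3 and 4 only, against 2.02 with all libraries). Macrophage markers higher in SMCs fell from 11 to 3 with replicates 1 and 2 only and to 6 with replicates 3 and 4 only. With replicates 1 and 2 only, counts higher in pericytes fell to 2 for mature genes and 1 for growth genes, and counts higher in SMCs fell to 1 for type 1, type 2 and growth genes and 0 for plasmacytoid genes by limma. With replicates 3 and 4 only, 6 growth genes were higher in pericytes. The sign of Zbtb46 turned to 0.99 with replicates 3 and 4 only and spanned -0.45 to 0.32 when each library was left out. Clec9a turned to -0.15 with replicates 1 and 2 only. Bst2 turned to -0.050 under quantile scaling, -0.23 under TPM scaling and -0.060 with replicates 3 and 4 only, and spanned -0.14 to 0.21 when each library was left out. TPM scaling moved the share of calls that were higher in pericytes from 48.8% to 36.2%. The causes of these changes were not tested. Without read numbers, no limit of detection can be given for the low levels of Xcr1 and Clec9a.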
